A study of Mus musculus with 2 samples.

Results

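The 8 genes described here belong to the cholesterol synthesis programme and were chosen by name from a table of 35976 gene rows: Hmgcs1, Idi1, Fdps, Fdft1 and Sqle, which encode enzymes of the route from acetyl units to squalene epoxide, Srebf2 and Insig1, which encode its transcriptional regulator and a brake on that regulator, and Mmab, which encodes an enzyme of cobalamin metabolism. None of the 8 encodes a lipoprotein receptor, so uptake genes were taken from a separate list. They were measured in OTII T cells, CD4 cells with a transgenic receptor for an ovalbumin peptide, that had been transferred into host mice and sorted from spleen on day 7 after "CAS" and second priming, a term the labels do not explain. The control pool came from 2 C57BL/6 hosts, and the deleted pool from 3 hosts of genotype IL13Ra1f/f, CD11cCre/+, in which Cre is driven mainly in host dendritic cells and not in the transferred T cells, so that the T cells cannot show whether the deletion worked. The study asked how the IL-13 signal bears on follicular helper T cell development. The gate (PI-, Vb5.1-5.2+, CD4+) names no marker that separates donor from host cells. Each group was 1 pool of animals spread over 4 plates, and no plate held both groups. Plate and pool therefore cannot be told apart, plates are technical splits, and no test or p-value between groups is possible.

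Cells make cholesterol from acetyl-CoA through the mevalonate pathway, in which isoprenoid units are joined to farnesyl diphosphate, then to squalene, and are closed into sterol rings. When sterols in the endoplasmic reticulum fall, the escort protein SCAP carries SREBP2, the product of Srebf2, to the Golgi, where it is cut and freed to switch on the genes of the pathway and, among them, Insig1. INSIG1 holds SCAP back when sterols are plentiful. T cells that grow and divide after antigen contact are known to draw on this pathway for membranes, and resting T cells use it less.

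SREBP2 binds sterol regulatory elements, usually beside CCAAT boxes bound by NF-Y, and the promoter sequences of 4 of the genes are shown because they carry these letters in different arrangements. RefSeq promoter sequences (GRCm38.p6) were found for 5 of the 8 genes: Hmgcs1, Idi1, Srebf2, Insig1 and Mmab. The 250 bases before the start in that table were searched, and the sequences are printed 5' to 3' on the strand of the gene. For Mmab that start lies 46 bases inside the gene's annotated span, and the 204 bases before the span are shown. Capitals mark TCACNCCA (a form of the sterol regulatory element), CCAAT and CACGTG (the E box), each sought on both strands, so that CCAAT may appear as ATTGG. Hmgcs1 lies at chr13:119690101-119690350 on the plus strand, Srebf2 at chr15:82147019-82147268 on the plus strand, Insig1 at chr5:28071162-28071411 on the plus strand and Mmab at chr5:114444074-114444277 on the minus strand.
Hmgcs1: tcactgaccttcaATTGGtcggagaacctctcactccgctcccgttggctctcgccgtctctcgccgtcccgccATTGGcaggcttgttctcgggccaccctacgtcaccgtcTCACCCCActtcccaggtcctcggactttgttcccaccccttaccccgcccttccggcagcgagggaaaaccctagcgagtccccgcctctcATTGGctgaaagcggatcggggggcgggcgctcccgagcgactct
Srebf2: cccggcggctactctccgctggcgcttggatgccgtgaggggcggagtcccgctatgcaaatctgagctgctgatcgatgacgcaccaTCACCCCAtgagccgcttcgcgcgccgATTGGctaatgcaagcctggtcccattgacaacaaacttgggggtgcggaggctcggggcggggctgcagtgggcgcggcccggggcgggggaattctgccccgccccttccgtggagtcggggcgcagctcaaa
Insig1: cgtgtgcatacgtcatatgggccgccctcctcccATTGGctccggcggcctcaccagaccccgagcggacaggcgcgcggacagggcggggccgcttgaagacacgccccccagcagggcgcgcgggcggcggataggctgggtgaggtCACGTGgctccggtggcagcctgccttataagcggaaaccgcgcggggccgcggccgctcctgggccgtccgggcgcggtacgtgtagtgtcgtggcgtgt
Mmab: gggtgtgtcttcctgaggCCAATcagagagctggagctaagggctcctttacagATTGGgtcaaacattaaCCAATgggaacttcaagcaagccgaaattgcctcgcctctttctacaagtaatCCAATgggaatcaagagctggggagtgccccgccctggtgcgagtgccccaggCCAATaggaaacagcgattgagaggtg

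TCACNCCA was present once in the Hmgcs1 window, 137 bases before the start, and once in the Srebf2 window, 162 bases before the start. Of 32851 RefSeq promoter windows of this length, 3.67% held it. CCAAT was present in all 5 windows, against 33.8% of all windows: 3 times for Hmgcs1, 2 times for Idi1, 1 time each for Srebf2 and Insig1, and 5 times for Mmab. Only 0.213% of all windows held 5 or more. CACGTG stood in the Insig1 window alone, 101 bases before the start, and in 6.02% of all windows. Mmab is the neighbour of Mvk, the gene of mevalonate kinase, and the start sites in the promoter table lie 242 bases apart on opposite strands. Their windows share 241 bases, read from opposite strands, so the CCAAT letters of Mmab are also those of Mvk. A match of letters describes the sequence and does not show binding.

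The 736 cell wells, 368 per pool, held a median of 1592794.5 reads in genes per cell in the control pool and 1499762 in the deleted pool, with medians of 1574 and 1540.5 genes at 5 reads or more. The 9 CD4 T cell markers (Cd3e, Cd3d, Cd3g, Cd4, Cd28, Lck, Lat, Cd5 and Cd6) were all measured and together reached 8803 and 9035 CPM (reads of a gene per 1000000 reads in genes) in the control and deleted pools. The B cell markers Cd79a, Cd79b, Ms4a1 and Cd22 summed to 5.08 and 6.28 CPM, with Ms4a1 near 0, and the 8 myeloid markers to 107 and 97.6 CPM, most of it Cst3. Of the other lists, the 4 erythroid markers summed to 10.8 and 11.9 CPM and the 2 CD8 markers to 26.5 and 9.47 CPM. The 5 natural killer cell markers differed in sum between pools without overlap of plates, at 18.4 to 39.6 CPM in control plates and 41.3 to 57.9 CPM in deleted plates, with Ncr1 under 1 CPM in both. In 9 wells with noinput or dw in their names, read here as wells without a cell although the labels do not explain the names, no gene of the 8 had more than 3 reads, and Hmgcs1 and Idi1 had none.

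The genes of the set were found in a minority of cells, and most were high where they were found. A positive cell had to reach 10 CPM of the gene, and also 5% of the mean CPM on its plate. Sqle was positive in 53 of 736 cells (7.20%) with a median of 1001 CPM in those cells, Fdft1 in 58 cells (7.88%) with 922 CPM, Hmgcs1 in 60 cells (8.15%) with 812 CPM and Fdps in 99 cells (13.5%) with 698 CPM. Idi1, in 30 cells (4.08%), and Mmab, in 22 cells (2.99%), had medians of 266 and 250 CPM. The 2 regulators were more widespread and lower: Srebf2 was positive in 155 cells (21.1%) at a median of 219 CPM, and Insig1 in 137 cells (18.6%) at a median of 45.9 CPM. A positive cell held a median of 1209 reads of Hmgcs1 but only 63 reads of Insig1. Between thresholds of 10 and 50 CPM the share of Insig1 moved most: at 50 CPM or more it was 9.78% in control and 6.79% in deleted cells, against 17.4% and 19.8% at 10 CPM. At least 1 read of Hmgcs1 was present in 188 control and 215 deleted cells. Levels were only weakly related to the depth of a cell, with Pearson r between -0.062 and 0.064 across 735 cells for the log10 of total reads. Divided by exon length, pool levels averaged 21.8 CPM per kb for Fdps, 17.2 for Hmgcs1, 17.0 for Fdft1, 14.6 for Insig1, 12.3 for Sqle, 10.96 for Srebf2, and 4.11 and 4.10 for Mmab and Idi1.

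The comparison of pools asked whether deletion in the hosts went with a different level of these genes in the T cells. Of the 8 genes, 7 had plates that overlapped between pools and a pool ratio within 2-fold. Mmab was the exception and was 4.55-fold lower in cells from deleted hosts. Plates did not overlap for 4.41% of the 9764 genes at 5 CPM or more in either pool (2.6% with the deleted plates lower and 1.81% with them higher), and 12.7% of them were at least 2-fold apart (6.71% lower in the deleted pool), so that 1 gene of 8 past 2-fold is close to the share of all genes. Ratios below are log2 of (CPM in the deleted pool + 1) over (CPM in the control pool + 1), and their median over all 9764 genes was -0.039.

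Hmgcs1 (chromosome 13, 119690351-119708260, plus strand) encodes HMG-CoA synthase, which condenses acetoacetyl-CoA with acetyl-CoA. It measured 49.1, 117, 141 and 33.5 CPM on control plates 1 to 4 and 52.3, 63.7, 88.2 and 87.9 CPM on deleted plates 1 to 4. The control plates were the wider group and enclosed all 4 deleted plates. The pool levels were 84.3 CPM (95% Poisson interval of the reads 83.5 to 85.0) and 73.8 CPM (73.0 to 74.5), a log2 ratio of -0.19. These intervals are far narrower than the spread between plates, since they cover read counting only. Positive cells made up 7.34% of control cells (exact interval 4.89 to 10.5%) and 8.97% of deleted cells (6.25 to 12.4%).

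Idi1 (chromosome 13, 8885606-8892396, plus strand) encodes the isomerase that supplies dimethylallyl diphosphate. Its control plates held 4.36, 7.39, 16.01 and 29.0 CPM and its deleted plates 18.0, 7.10, 24.7 and 8.10 CPM. Both groups covered nearly the same range, and the pools were at 14.4 CPM each. With 12 and 18 positive cells it was among the rarest of the set, and 1 control cell carried 24.5% of all control reads.

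Fdps (chromosome 3, 89093588-89101967, minus strand) encodes farnesyl diphosphate synthase, at the branch to sterols and to prenyl groups. The control plates gave 106, 101, 66.1 and 30.6 CPM and the deleted plates 75.7, 124, 133 and 96.1 CPM. Control plate 4 was low and deleted plates 2 and 3 were high, while the rest intermingled. Its pools stood at 75.5 and 108 CPM, a log2 ratio of 0.51, the highest of the 8. Positive cells were 46 (12.5%, interval 9.30 to 16.3%) and 53 (14.4%, 10.98 to 18.4%). The span of Fdps overlaps that of Gm43738, a protein-coding gene on the same strand. How reads of overlapping genes were counted is not given in the sources used here.

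Fdft1 (chromosome 14, 63145150-63181687, minus strand) encodes squalene synthase, the first step given over to sterols. It was at 62.4, 90.0, 68.3 and 25.4 CPM on control plates and 112, 69.2, 105 and 48.4 CPM on deleted plates. The 2 highest values were deleted plates, and the others interleaved. Pool levels of 61.0 and 82.8 CPM gave a log2 ratio of 0.44, and positive cells numbered 20 (5.43%, 3.35 to 8.27%) and 38 (10.3%, 7.41 to 13.9%). Its exons share 774 bases with those of Ctsb, a lysosomal protease gene on the opposite strand at 509 and 419 CPM. Whether counting used strand is not given in the sources used here, so reads of that stretch cannot be told apart. The correlation of Fdft1 with Ctsb across cells was 0.079.

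Sqle (chromosome 15, 59315092-59331193, plus strand) encodes squalene epoxidase, a rate-limiting oxygenation. Control plates measured 22.01, 99.7, 85.5 and 42.9 CPM and deleted plates 102, 75.1, 83.8 and 42.4 CPM. Only deleted plate 1 lay above the control range, and none lay below it. The pools were at 62.0 and 74.9 CPM (log2 ratio 0.27), with 21 and 32 positive cells.

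Srebf2 (chromosome 15, 82147269-82205379, plus strand) was at 62.1, 92.6, 78.5 and 66.2 CPM on control plates and at 139, 50.2, 105 and 43.8 CPM on deleted plates. Here the deleted plates were the wider group and reached both above and below the control plates. Pool levels of 74.6 and 82.9 CPM gave a log2 ratio of 0.15, and positive cells made up 19.6% (15.6 to 24.0%) and 22.6% (18.4 to 27.2%).

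Insig1 (chromosome 5, 28071412-28078662, plus strand) measured 20.9, 58.2, 78.4 and 30.5 CPM on control plates and 50.7, 46.7, 45.0 and 33.1 CPM on deleted plates. All deleted plates fell inside the control range. The pools were at 46.8 and 43.6 CPM (log2 ratio -0.10), with 64 and 73 positive cells.

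Mmab (chromosome 5, 114431034-114444073, minus strand) encodes the adenosyltransferase that makes the cobalamin cofactor of methylmalonyl-CoA mutase. It measured 17.8, 23.5, 37.1 and 23.1 CPM on control plates and 2.60, 9.35, 7.29 and 0.028 CPM on deleted plates. Every control plate was above every deleted plate. The pool levels were 25.4 CPM (24.9 to 25.8) and 4.79 CPM (4.61 to 4.98), a log2 ratio of -2.19. The difference lay in few cells: 16 control cells were positive (4.35%, 2.51 to 6.96%) against 6 deleted cells (1.63%, 0.601 to 3.51%). A single deleted cell held 48.0% of the reads of its pool and a single control cell 24.2%. Over the settings tried, the ratio ran from -2.62 to -1.63. The summed natural killer markers, which also differed between the plates of the pools, went the other way. Of the CD8 markers, Cd8b1 went the same way as Mmab, at 26.3 and 9.27 CPM (log2 ratio -1.41) with 16 and 7 positive cells. Its plates overlapped, at 13.5 to 41.5 CPM in control and 0.096 to 15.9 CPM in deleted hosts. Cd8a, the other CD8 marker, did not go this way, at 0.155 and 0.199 CPM with 0 positive cells in either pool. The part of either marker set in the result was not tested.

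**Figure D1:**
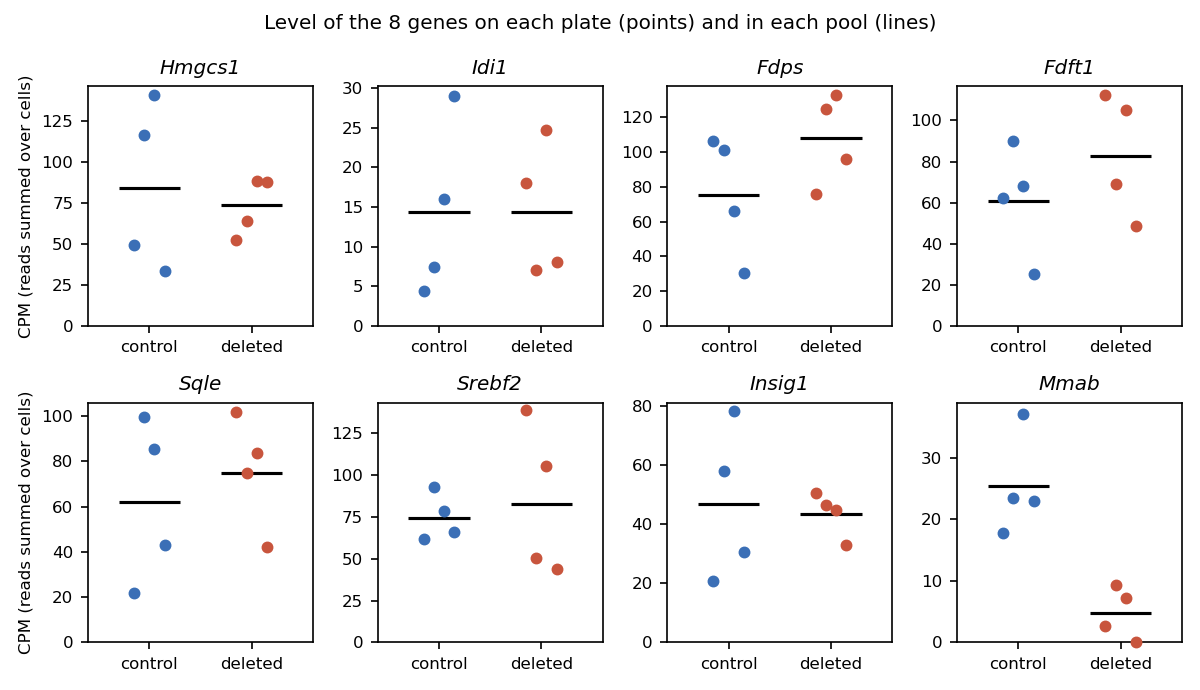
Level of each gene in CPM of reads summed over cells (vertical axes, starting at 0, one scale per gene), with 1 point per plate for control (blue) and deleted (red) hosts and a line at the pool level. The points overlap between pools for 7 genes, and for Mmab the 4 control plates (17.8 to 37.1 CPM) lie above the 4 deleted plates (0.028 to 9.35 CPM).

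The rest of the pathway was as level between pools as the 7 genes. All 20 synthesis enzymes of the list were measured, none was 2-fold apart, 8 had a log2 ratio above 0 and 12 below, and their median log2 ratio was -0.035 beside -0.039 for all genes. Besides Fdps and Fdft1, the enzymes furthest from 0 at 20 CPM or more were Pmvk (phosphomevalonate kinase, log2 ratio 0.48, plates overlapping) and Lss (lanosterol synthase, -0.45). Mvk, the promoter neighbour of Mmab, was at 13.4 and 7.38 CPM, and its plates overlapped, at 3.58 to 25.7 CPM in control and 0.072 to 17.1 CPM in deleted hosts. No cell was positive for both Mmab (20 cells at 10 reads or more) and Mvk (11 cells), and their correlation across cells was -0.017.

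Of the 7 sterol-sensing genes, 1 was 2-fold apart (12.7% of all genes were), Mbtps2 (a protease that cuts SREBP) at 5.16 and 11.9 CPM, with overlapping plates. Insig2, the second INSIG gene, was at 44.7 and 28.1 CPM (log2 ratio -0.65), Srebf1 had a log2 ratio of 0.21 and Mbtps1, another protease of this route, of 0.20. Uptake and trafficking genes at 5 CPM or more numbered 7 of 8, none 2-fold apart. Among them Mylip, a ubiquitin ligase that marks lipoprotein receptors for degradation, was higher in the deleted pool without overlap of plates, at 29.6 to 45.9 CPM in control and 53.6 to 68.2 CPM in deleted plates, while Lipa and Npc2 had log2 ratios of -0.13 and -0.021. Mylip was 1 of 7 in this respect, where plates did not overlap for 4.41% of all genes.

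Of 10 genes of efflux, storage and oxysterol sensing, 5 were measured and none was 2-fold apart. Gpr183, the receptor that guides lymphocytes along gradients of oxysterols, was at 206 to 290 CPM in control and 316 to 503 CPM in deleted plates, without overlap. Nr1h2 (liver X receptor beta), Soat1 and the exporter Abcg1 had log2 ratios of -0.42, -0.41 and -0.082. In fatty acid synthesis 1 of 8 measured genes was 2-fold apart (12.7% of all genes were), Fasn (fatty acid synthase), at 54.6 and 25.8 CPM with overlapping plates. Acss2, which makes acetyl-CoA from acetate, was at 42.8 to 73.6 CPM in control and 83.9 to 139 CPM in deleted plates, without overlap. Gpr183 and Acss2 were thus 1 of 5 and 1 of 8 measured genes without overlap, beside 4.41% of all genes. Elovl5 and Elovl6, elongases of fatty acids, had log2 ratios of 0.82 and -0.39.

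The cobalamin and propionate genes, to which Mmab belongs by function, went both ways. Of 10 measured, 2 were 2-fold higher and 2 lower in the deleted pool, where 5.98% of all genes were higher and 6.71% lower by this rule, and the median log2 ratio was 0.56. Beside Mmab the lower gene was Pccb (propionyl-CoA carboxylase beta), named after its values were seen, at 19.7 and 3.69 CPM (log2 ratio -2.14) with plates that overlapped, at 2.76 to 41.1 CPM in control and 0.044 to 7.91 CPM in deleted hosts. Mut, the mutase that uses the cofactor made by the Mmab product, had a log2 ratio of -0.33. Mtr (methionine synthase) was at 15.2 and 34.0 CPM, Pcca (propionyl-CoA carboxylase alpha) at 34.0 and 62.5 CPM and Mmadhc at 41.7 and 75.8 CPM, all higher in the deleted pool and with overlapping plates. In proliferation, 4 of 10 were 2-fold higher in the deleted pool (5.98% of all genes) and none lower, all 4 of them under 20 CPM in both pools, and the median log2 ratio was 0.47. The 4 rested on few cells: Cdk1 and Ccnb1 were positive in 0 control and 3 deleted cells each, Birc5 in 3 and 2, and Top2a in 6 and 10. Mki67 was positive in 8 control and 4 deleted cells. Pcna, Mcm2 and Mcm5 had log2 ratios of 0.25, 0.31 and -0.93.

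Within each pool, 6 genes of the set were found together in the same cells more often than the product of their shares gives. For the counts of cells with several genes, 10 reads of a gene were also required, because 2 shallow wells otherwise passed for 7 and 5 genes on 1 or 2 reads each. Across the 15 pairs among Hmgcs1, Idi1, Fdps, Fdft1, Sqle and Insig1, cells with both genes exceeded the product of shares in every pair and in both pools, by 1.77 to 4.61 times (median 2.46) with the pools combined. The combined ratio was highest for Idi1 with Fdft1, at 10 cells against 2.17 from the product of shares, and lowest for Fdps with Insig1, at 32 cells against 18.1. Hmgcs1 with Sqle were together in 14 cells against 4.02. For the 6 pairs of these genes with Srebf2 the ratios were lower, from 1.28 to 2.16. Mmab shared at most 4 cells with any other gene of the set.

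Correlations of log2(CPM + 1) across the 735 cells with 10000 reads or more, with plate means subtracted, were low throughout. They ran from 0.10 to 0.22 for the 15 pairs (median 0.20 in control cells and 0.17 in deleted cells), from 0.025 to 0.13 for Srebf2 with these 6 genes and from -0.026 to 0.053 for Mmab. The cells of a plate share a library preparation, and values this low are given as a description. When 6603 genes positive in at least 5% of cells were ranked by correlation, the 3 most like genes of Hmgcs1 were Sqle, Insig1 and Fdft1, and those of Fdft1 were Insig1, Hmgcs1 and Sqle. The 3 most like Fdps were Insig1, Sqle and Hmgcs1, and the 3 most like Insig1 were Fdft1, Fdps and Sqle. For Sqle they were Hmgcs1, Ruvbl2 and Insig1, and for Idi1 they were Fdft1, Sqle and Spen. Genes of the set thus held 16 of these 18 places, and 17 of 24 over all 8 genes. Idi1 and Mmab, positive in fewer than 5% of cells, could not take a place. The correlation of Fdft1 with Idi1 was 0.21, above those with Hmgcs1 and Sqle, at 0.20 and 0.17. Ranks were less steady within a pool: Sqle ranked 5 for Hmgcs1 in control cells and 1 in deleted cells, but Hmgcs1 ranked 1 for Fdps in control cells and 1425 in deleted cells. The genes most like Srebf2 were Prdm2, Cox4i1 and Insig1, and those most like Mmab were Zdhhc4, AK010878 and Dyrk1b.

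**Figure D2:**
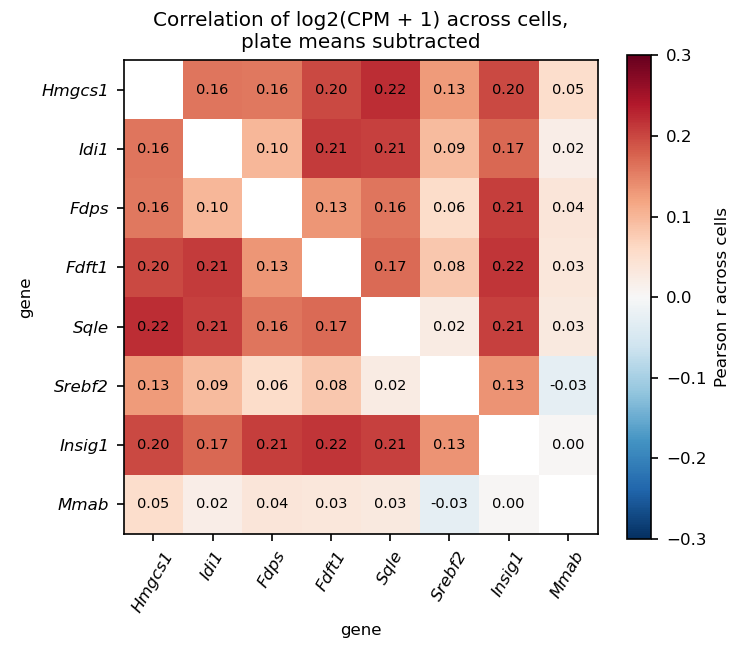
Pearson correlation across 735 cells of log2(CPM + 1) for each pair of the 8 genes (both axes), with plate means subtracted, on a colour scale from -0.3 to 0.3. The 6 genes Hmgcs1, Idi1, Fdps, Fdft1, Sqle and Insig1 form the darker pairs (0.10 to 0.22), and the row of Mmab stays between -0.026 and 0.053.

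Cells were then counted by how many of the 8 genes were positive in them. No gene of the set was positive in 370 cells, 1 in 231, 2 in 77, 3 in 34, 4 in 12, 5 in 8, 6 in 3 and 7 in 1 cell. Cells with 3 or more numbered 25 of 368 in the control pool (6.79%, interval 4.44 to 9.87%) and 33 of 368 in the deleted pool (8.97%, 6.25 to 12.4%). The product of shares gives 10.6 and 16.1 such cells. For 4 or more it gives 1.11 and 1.98 cells, and 8 and 16 were found, while for 2 or more the counts of 56 and 79 were close to the 61.2 and 78.7 of the product. The departure thus lay in cells with many of the genes. Every plate had between 5 and 13 cells with 3 or more.

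The reads of the 8 genes in those 58 cells are given as a description, since the same genes chose the cells. They were 7.88% of all cells and held 61.4% of all Fdft1 reads, 57.9% of Hmgcs1, 56.1% of Idi1, 51.7% of Sqle, 47.3% of Insig1 and 37.0% of Fdps, but 24.3% of Mmab and 19.4% of Srebf2. The cell with the most genes, well F5 of control plate 3, was positive for 7, with 3348 CPM of Hmgcs1, 2745 of Sqle, 2372 of Fdft1, 1120 of Idi1, 989 of Mmab, 833 of Fdps and 93.8 of Insig1, and with 0.555 CPM of Srebf2. In the deleted pool well G9 of plate 4 had 6, led by Fdps at 594 CPM and Sqle at 512 CPM. Cells with 3 or more genes had a median of 1594723.5 reads and 1563 genes, against 1538560 reads and 1550.5 genes in cells with none. Their summed CD4 markers were at 8836 and 8974 CPM, whereas their natural killer markers summed to 4.66 CPM against 35.5 CPM. Most of that difference lay in Klrb1c and Prf1, positive in 0 of the 58 cells and in only 10 and 8 of the 370 cells with none. Of all other genes, 13.2% were at least 2-fold lower in the 58 cells in both pools. The B cell markers went the other way with the pools combined, at 13.1 against 6.61 CPM, but not in both pools. They were at 29.4 against 2.96 CPM in control cells and at 0.343 against 10.6 CPM in deleted cells. Cd79a and Cd79b were each positive in 1 of the 58 cells.

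**Figure D3:**
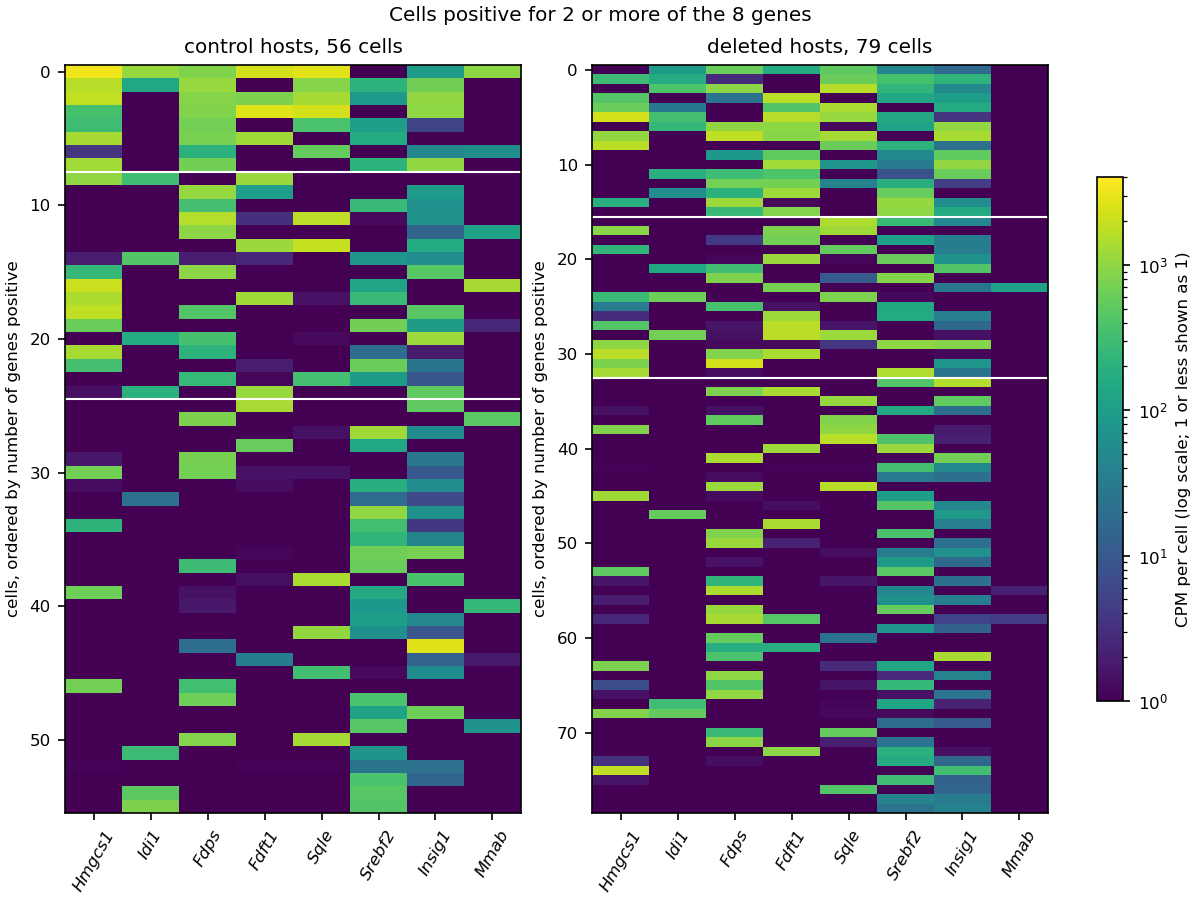
Each line is 1 cell positive for 2 or more of the 8 genes (56 control cells on the left, 79 deleted cells on the right), ordered by the number of genes positive, and colour gives the CPM of each gene in the cell on a log scale. White lines close off the cells with 4 or more (8 and 16) and 3 or more (25 and 33). Mmab is dark in most cells of both panels, and was positive in 7 of the 56 control and 1 of the 79 deleted cells.

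Enzymes of the pathway that had no part in choosing these cells were higher in them. Of 15 other synthesis enzymes, 7 were at least 2-fold higher in cells with 3 or more of the genes than in cells with none, in both pools, and none was lower in both. Among all 9290 other genes 2.62% were 2-fold higher in both pools and 13.2% lower. The median fold of the 15 was 3.46 (3.26 in control and 3.01 in deleted cells), beside 0.939 for all other genes. Leaving out 1 plate at a time kept it between 2.91 and 3.55.

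Msmo1, the sterol C4-methyl oxidase, was at 25.6 CPM in cells with none of the 8 genes, 58.7 with 1, 104 with 2 and 246 with 3 or more, and was positive in 19 of the 58 cells against 14 of the 370. Lss, which closes the sterol ring, went from 9.09 through 22.3 and 31.7 to 172 CPM. Both climbed at each step with the pools combined. Acat2, the cytosolic thiolase that feeds HMG-CoA synthase, was at 43.9, 46.5, 80.3 and 166 CPM, and Sc5d, a late desaturase, at 52.0, 74.1, 93.3 and 167 CPM. The remaining 3 of the 7 were Mvk, Mvd and Nsdhl. Mvk and Mvd were positive in only 5 of the 58 cells each, and Nsdhl in 8. Cyp51, lanosterol demethylase, differed between pools in this respect, at 1.90-fold in control and 22.3-fold in deleted cells, a difference that was not tested. Ebp and Lbr, at 0.824-fold and 1.15-fold, did not share the pattern. Lbr, a nuclear envelope protein as well as a sterol reductase, was positive in 55.1% of the cells with none. These enzymes were named after their values were seen.

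**Figure D4:**
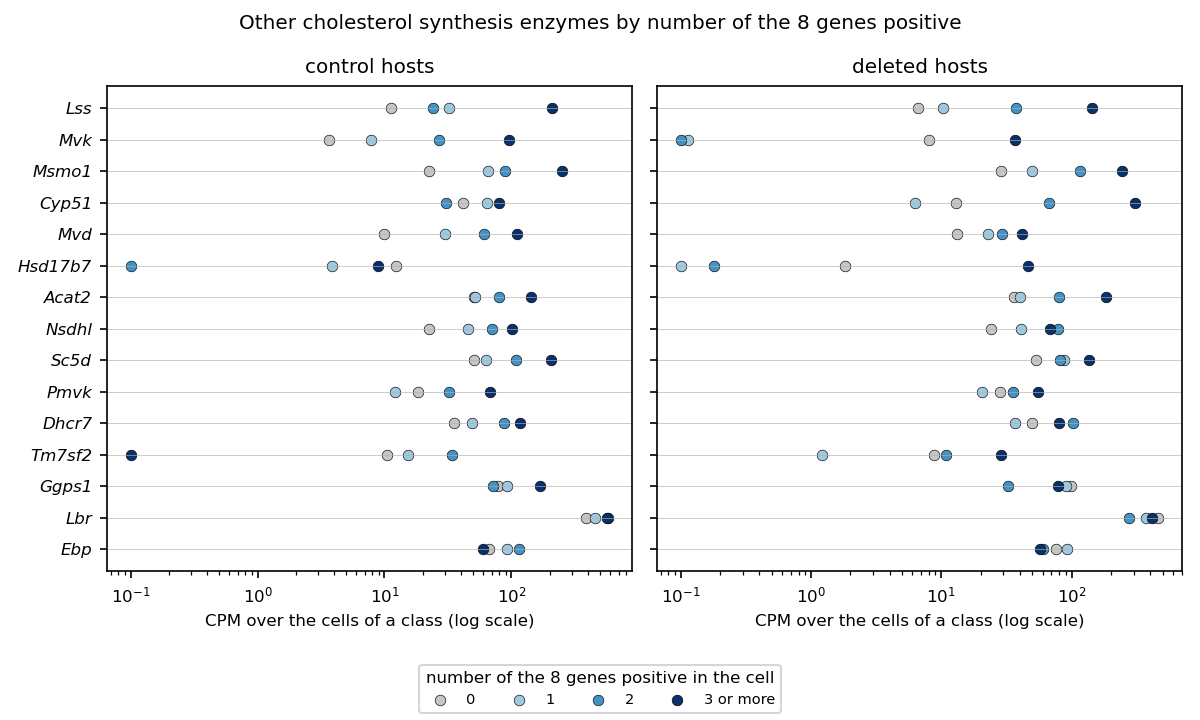
Level in CPM (horizontal log axis, values under 0.1 drawn at 0.1) of the 15 other synthesis enzymes in cells with 0, 1, 2, or 3 or more of the 8 genes positive, for control (left) and deleted (right) hosts. In both pools the darkest points (3 or more) lie furthest right for Msmo1, Lss, Acat2, Sc5d, Mvk, Mvd, Pmvk and Cyp51, and Ebp shows no such order.

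The other lists were set beside the same 58 cells. In fatty acid synthesis 3 of 8 genes were 2-fold higher in both pools, against 2.62% of all other genes: Fasn at 87.2 against 30.4 CPM, Scd2 (stearoyl-CoA desaturase) at 68.9 against 13.1 CPM and Fads1, a rare desaturase transcript. None of the 5 sterol-sensing genes outside the set was. The sterol exporters Abcg1 and Abca1 were lower in both pools, Abcg1 at 36.4 against 198 CPM and positive in 12.1% against 46.2% of cells, and so were 2 of 7 uptake genes (Npc1 and Scarb1). These lower counts, 2 of 5 and 2 of 7, stand against the 13.2% of all genes that were lower. Apart from Abcg1, few cells carried them. Abca1 was positive in 0 of the 58 cells and in 4 of the 370 cells with none. Npc1 was positive in 2 and 22 of these cells, and Scarb1 in 1 and 7. Of 8 proliferation genes, Mki67, Rrm2 and Birc5 were 2-fold higher in both pools (3 of 8, against the same 2.62%), positive in 2, 4 and 2 of the 58 cells. Of 9 cobalamin and propionate genes outside the set, 1 was higher in both pools (against 2.62%), Mmachc, positive in 2 of the 58 cells. Mmaa and Pccb were lower (2 of 9, against 13.2%), positive in 0 of the 58 cells and in 6 and 7 of the 370.

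Levels were also set beside 5 genes of T cell state, each splitting the cells of a pool into positive and negative: Cd69 and Tnfrsf9 (activation), Cd44 (antigen experience), Mki67 (division) and Cxcr5 (follicular homing). Of the 40 pairs of a class with a gene of the set, 5 were past 2-fold in the same direction in both pools, 2 of them for Mki67, which was positive in only 8 and 4 cells. The same rule took, of all genes, 1.44% as higher and 2.84% as lower for Cd69, 2.71% and 8.45% for Tnfrsf9, 1.95% and 6.92% for Cd44, 2.94% and 35% for Mki67, and 1.7% and 6.88% for Cxcr5. The 5 of 40 pairs are thus close to the share of all genes, and single pairs are given as a description. Insig1 was higher in Tnfrsf9-positive cells, at 92.0 against 40.3 CPM in control and 89.8 against 32.8 CPM in deleted cells, and on 3 of 4 plates in each pool. It was positive in 21.7% against 16.8% of control and 28.1% against 18.1% of deleted cells. Of all genes, 2.71% were 2-fold higher in both pools in these cells. In the deleted pool Tnfrsf9-positive cells had a median of 1778.5 genes against 1501.5.

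Hmgcs1 was lower in Cxcr5-positive cells, at 4.65 against 96.9 CPM in control and 22.7 against 84.2 CPM in deleted cells, and on all 8 plates. Its positive cells in this class were 1 of 46 and 4 of 57, so few cells carry the difference, and 6.88% of all genes were lower in this way. Idi1 was lower in Cd44-positive cells, at 3.52 against 16.1 CPM and 1.497 against 16.7 CPM, with 1 and 2 positive cells in the class and 6.92% of all genes lower. No gene of the set was past 2-fold in both pools for Cd69.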

How the data were processed

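For 8 plates, 4 per pool, the authors deposited unnormalized counts of reads, made by SmartSeq2 with 25 PCR cycles per the labels' protocols. Counting was with featureCounts 2.0.1 on mm10, per the submitters' processing notes. How reads were aligned, which annotation was used, and how strand and multi-mapped reads were handled is not given in the sources used here. No molecular identifiers are named, so intervals cover counting error only.

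Here reads were summed over cells per plate (125197307 to 148025125 reads) and pool and scaled to CPM. Of the 9764 genes at 5 CPM or more, ratios used a pseudocount of 1 CPM. Co-expression used cells with 10000 reads or more. No well was dropped from sums and no doublet caller was run on sorted wells. With 1 pool per group there was no test, and values were set beside their share over all genes. Computations used Python 3.11.15, numpy 2.4.6, pandas 2.3.3 and scipy 1.17.1, and were tested on simulated data. Genes and lists were chosen with earlier results of these data known. From each list up to 4 genes with the largest log2 ratio at 20 CPM or more were named, beside the 3 most like genes of each member, and others were named after their values were seen. The 10-read minimum was also chosen after seeing the data. Alternatives were another scaling, pseudocount, filter, threshold and correlation, thinning to 500000 reads, and leaving out wells or plates. Some genes of the lists and classes, 7 in all, are not reported here. Sequences are from RefSeq (GRCm38.p6), found for 5 of the 8 genes, and coordinates from the same build.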

Additional observations from a re-analysis of the deposited data

Results flagged for a closer look

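Reads of the 8 genes also appeared in the control wells with names ending in mBM10 or mBM100, which no comparison used and which the labels do not explain. Of these 23 wells, the number with 10 reads or more was 17 for Fdps, 15 for Insig1, 14 for Srebf2, 12 for Fdft1, 10 each for Hmgcs1 and Sqle, 9 for Idi1 and 3 for Mmab. The 9 wells read as holding no cell, with noinput or dw in their names, had at most 3 reads of any of the 8 genes. The mBM wells held 11622 to 2740373 reads in genes.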

How the results depend on the processing

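Mmab was the only gene of the 8 without overlap of plates, and the only one 2-fold apart, under every alternative run, including each plate left out in turn (a count of 1 to 1 for both). The median log2 ratio of the 20 synthesis enzymes ran from -0.13 to 0.020 with each plate left out. The median correlation over all 28 pairs was 0.13 with Pearson, 0.10 with Spearman and 0.13 after thinning to 500000 reads. The direction between pools held in all 16 settings, the reported one included, for Fdps, Fdft1 and Mmab, and turned in some of them for the other 5 genes. The log2 ratio ran from -0.46 to 0.25 for Hmgcs1, from -0.38 to 0.58 for Idi1, from -0.0098 to 0.58 for Sqle, from -0.17 to 0.37 for Srebf2 and from -0.34 to 0.26 for Insig1. Without the 10-read minimum, cells with 3 or more genes numbered 25 and 35. No paired analysis was possible because each group is 1 pool and plates carry no pairing. The 8 genes were positive in 22 to 155 cells each, which limits the precision of plate levels.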
